A study of Mus musculus with 5 samples.

Results

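Translation factors and aminoacyl tRNA synthetases were followed as a group in mouse peritoneal macrophages, the phagocytes of the abdominal cavity. Members were taken by name: genes whose platform symbol starts with Eif or Eef, with Eif2ak2 left out, and the tRNA synthetases named by the amino acid letter followed by ars, or Eprs. The rule used no measured value. It found 70 genes on 92 probe sets, of 8251 genes that had a probe set with 1 symbol, and 63 of the 70 passed the signal filter and were tested among 5581 genes. Each gene was read from the probe set with its highest mean signal. Eif2s1 and Eif4g1, which encode the alpha subunit of eIF2 and the main eIF4G scaffold, were not among the probe sets with 1 symbol and were not analysed here.

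Initiation factors bring the initiator tRNA, the mRNA and the ribosomal subunits together, elongation factors move the ribosome along the message, and synthetases load each tRNA with its amino acid. Protein synthesis is turned down in virus-infected cells and in starved or stressed cells, mainly by kinases that phosphorylate eIF2 and block its recycling by eIF2B, and by proteins that hold the cap-binding factor eIF4E. The phosphorylated state that carries this control is not seen by an expression array, which reads only mRNA.

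RNA was hybridised to 5 Affymetrix MG-U74Av2 arrays, 1 for each sample. The poly IC plus ethanol group had 2 pools of mice given 0.1 mg poly IC per mouse and an acute oral dose of 6 g ethanol per kg. The poly IC group had 2 pools of mice given poly IC, a synthetic double-stranded RNA, at 0.1 mg per mouse in replicate 2 and at a dose the label of replicate 1 does not state. All of these were female F1 mice of a C57Bl/6 by C3H cross aged 12 weeks. The naive group was 1 untreated sample, with no sex, age or pooling given. There was no array of ethanol without poly IC, and the time between treatment and harvest is not given in the sources used here. Each pool counts as 1 replicate, so p-values rest on the spread of pools rather than of mice, and the naive sample was assumed to vary like the pools.

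Values are Microarray Suite 5.0 signals on a linear scale. Pairs of signals are given in the order of the replicate numbers, and differences are on the scale of log2(signal + 250), which understates changes of dim genes. The median signal of the 5 arrays lay between 769 and 902, and the brightest of 19 unspiked control probe sets, taken as background, between 299.6 and 443.8. The 18S ribosomal control differed most between the poly IC pools, at 5113 and 66548. The number of arrays limits the precision of every value below.

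The labelled cell type was checked against markers. All 15 macrophage markers on the array lay above background on each of the 5 arrays, and of 14 tested 1 fell in the ethanol group against poly IC and 3 rose in poly IC against naive. Markers of other peritoneal cells moved with the groups. Summed signals of 15 neutrophil markers were 68496 and 57382 in poly IC plus ethanol, 161625 and 125633 in poly IC, and 25671 in naive. On the naive array 8 of them (Cxcr2, Lcn2, Ltf, Ly6g, Mmp8, Mpo, Ngp and S100a9) were at or below background, against 5 and 3 on the ethanol arrays and 2 and 2 on the poly IC arrays. Of 13 tested, 6 fell with ethanol and 9 rose and 1 fell with poly IC. Summed signals of 16 B cell markers were 273363 and 286835 in poly IC plus ethanol, 213732 and 196759 in poly IC, and 432594 in naive, and of these only Cr2 (on the 4 treated arrays) and Fcer2a (on that of poly IC replicate 1) lay at or below background. Of 15 tested, 5 rose with ethanol and 13 fell with poly IC. Summed signals of 3 erythroid markers were 19534 and 10491 in poly IC plus ethanol, 18325 and 34046 in poly IC, and 1144 in naive. Both tested, the globins Hba-a1 (4.42) and Hbb-b2 (3.10), rose with poly IC against naive, and neither passed with ethanol against poly IC (-0.83 and -0.69). Summed signals of 7 mast cell markers were 32003 and 28687 in poly IC plus ethanol, 62026 and 35853 in poly IC, and 22262 in naive, and of 5 tested Hdc alone was called (-1.15 with ethanol against poly IC and 3.35 with poly IC against naive). Summed signals of 15 T and NK cell markers were 23478 and 26371 in poly IC plus ethanol, 21749 and 15207 in poly IC, and 29944 in naive, with 6 and 5, 8 and 9, and 4 of them at or below background. Of 6 tested, Cd2 rose (1.04) and Gzmb fell (-1.51) with ethanol, and with poly IC Gzmb (3.28) and Gzma (1.27) rose and Cd2 (-1.32) and Klrd1 (-1.12) fell. Several called markers passed the signal filter (a mean of 513) through the groups where they were high. The naive signal was under it for Gzmb (189.4), Lcn2 (277.1) and Hbb-b2 (374.3), among others. The poly IC mean was under it for Fcer2a (346.2) and Klrd1 (501.1). Calls of these markers were not followed without the filter. In such bulk samples fewer cells of a type and less RNA per cell cannot be told apart, and the part of these cells in the results below was not tested.

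Between poly IC plus ethanol and poly IC, 7 of 63 members were called (11.1%), with 2 higher and 5 lower, beside 10.6% of all tested genes (5.77% higher and 4.8% lower, or 322 and 268 genes, which were 165 and 254 when arrays were centred on their medians). A call is an adjusted p under 0.05 in limma over all tested genes. Eif2ak1 and Eif4ebp2 were higher and Rars, Eif5b, Eif3a, Eif4a1 and Eif3d were lower in the ethanol group. At an unadjusted p under 0.05 there were 18 members (28.6%), beside 25.8% of all tested genes. The median difference of the 63 was 0.01, beside 0.07 over all tested genes, with 32 members above 0 and 31 below. Signals of the 2 pools in each group did not overlap for 35 members (55.6%), beside 54.7% of all tested genes. The share of members called was thus near that of the array as a whole. Of these 7 calls none passed in limma without poly IC replicate 1 (adjusted p from 0.115 to 0.296, with 10 of 63 at an unadjusted p under 0.05), and without poly IC replicate 2 only Rars did (adjusted p = 0.0473). With 1 prior variance for all genes in place of an intensity trend none passed either (adjusted p from 0.0726 to 0.117, with 13 of 63 at an unadjusted p under 0.05).

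Between poly IC and naive, 14 of 63 members were called (22.2%), with 6 higher and 8 lower, beside 31.8% of all tested genes (11.7% higher and 20.1% lower). The largest rises were of Eif1a, Rars and Eif3j1 and the largest falls of Eif2ak3, Eif4ebp1 and Eif2d. The median difference of the members was -0.04, beside -0.16 over all tested genes, and its sign turned when the arrays were centred on their medians (0.04) or quantile normalized (0.01), with probe sets averaged (0.02) and with the higher filter (0.04). Members differed by a median size of 0.35, beside 0.48 over all tested genes. At an unadjusted p under 0.05 there were 24 members (38.1%), beside 42.3% of all tested genes. Both poly IC signals lay on the same side of the naive signal for 54 members (85.7%), beside 87.1% of all tested genes. Without poly IC replicate 2 only 9 members were called.

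Between poly IC plus ethanol and naive, 8 of 63 members were called (12.7%), with 5 higher and 3 lower (6 and 2 with quantile normalization), beside 16.6% of all tested genes (8.39% higher and 8.26% lower). The median difference was -0.20, beside -0.11 over all tested genes, with 23 members above 0 and 40 below. At an unadjusted p under 0.05 there were 15 members (23.8%), beside 30.4% of all tested genes. Both ethanol pools lay on the same side of the naive signal for 52 members (82.5%), beside 80.8% of all tested genes. With either poly IC array left out, which also enters the shared estimate of spread, 5 members were called, and without ethanol replicate 1 there were 15. This comparison joins poly IC and ethanol, and without an array of ethanol alone their parts cannot be told apart. The comparisons share arrays, so that the poly IC pools stand on opposite sides of the first and second, and the values of a gene in them are given side by side only. Over all 3 comparisons 19 members were called at least once and 44 in none.

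**Figure D1:**
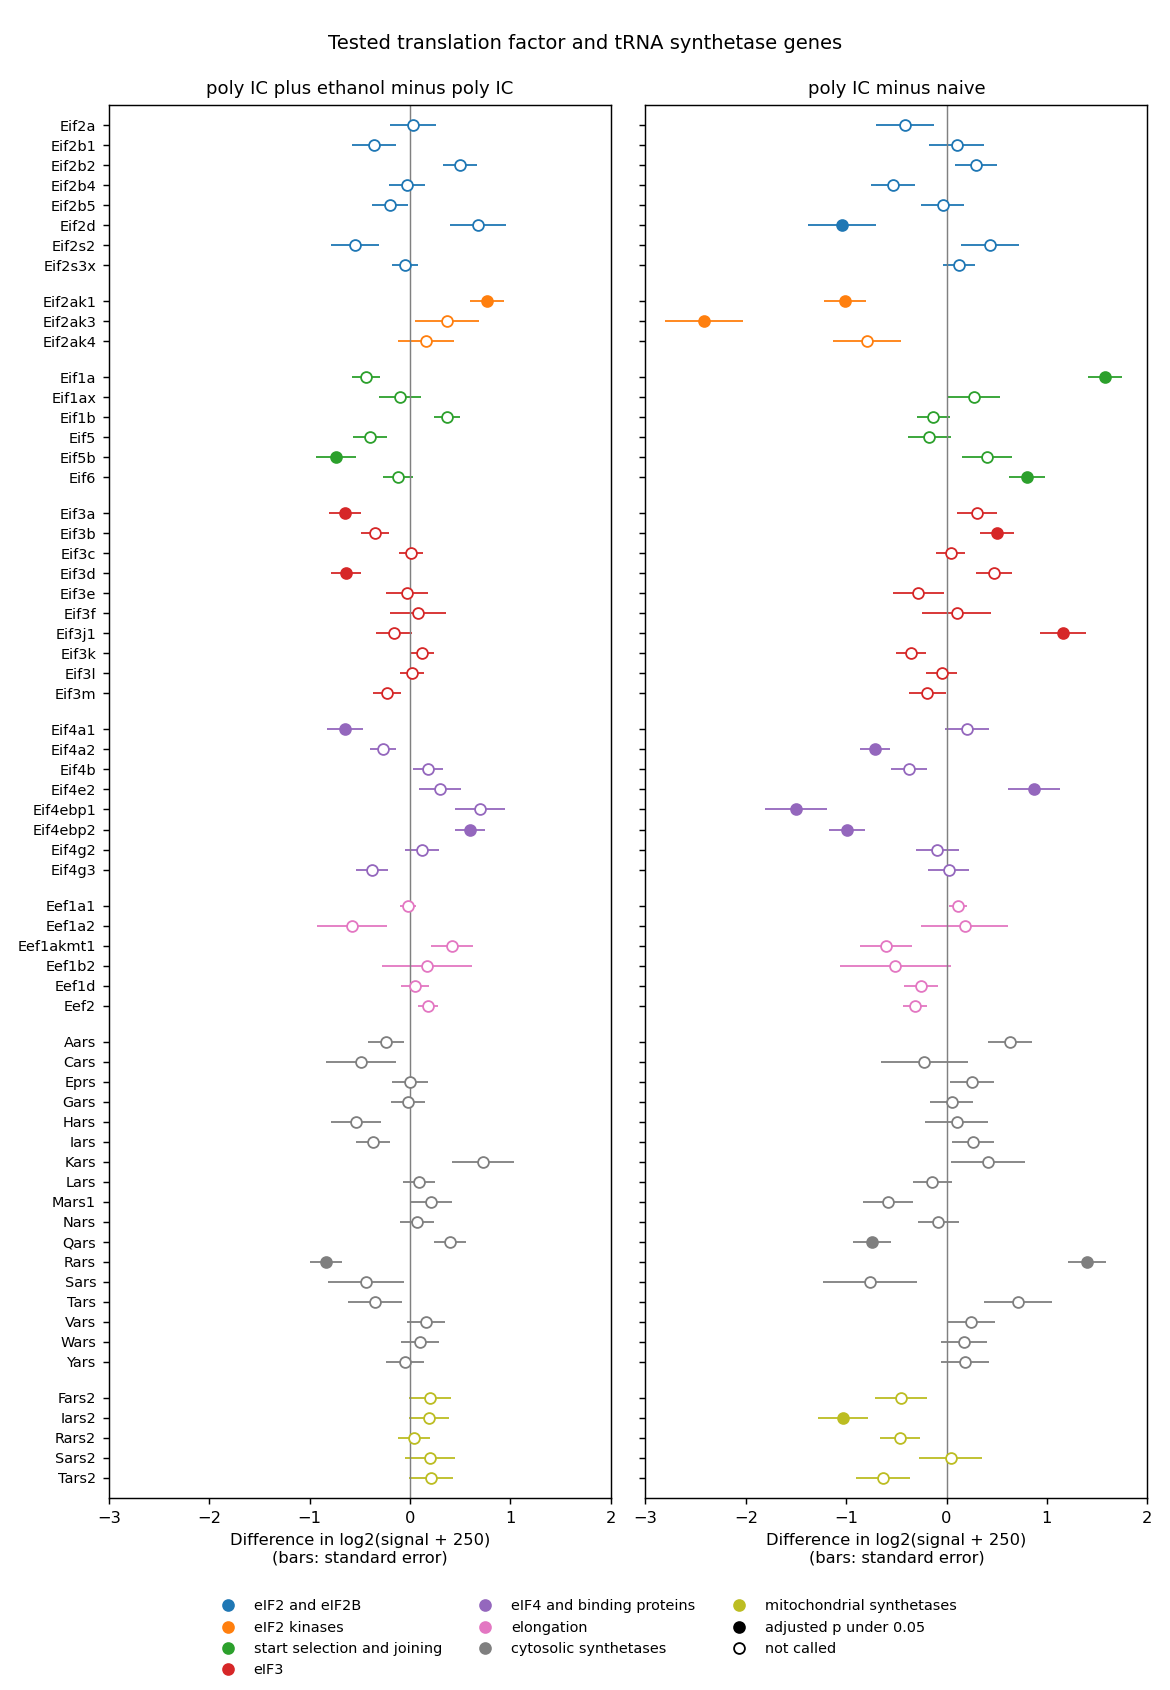
Differences in log2(signal + 250) of the 63 tested members (x axis) with standard error bars, for poly IC plus ethanol minus poly IC on the left and poly IC minus naive on the right, ordered by role, with filled points for adjusted p under 0.05. On the left 7 points are filled, at -0.84 to 0.77, and on the right 14, at -2.42 to 1.58.

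**Figure D2:**
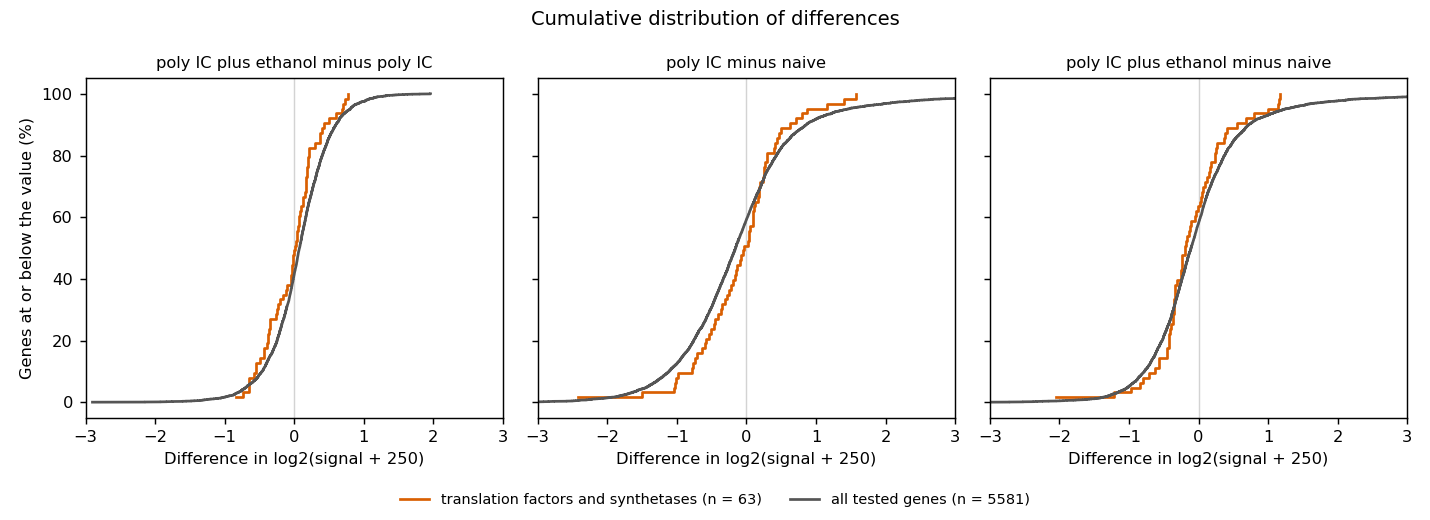
Cumulative share of genes (y axis, percent) at or below each difference in log2(signal + 250) (x axis, drawn between -3 and 3) for the 63 members and all 5581 tested genes in the 3 comparisons. In poly IC minus naive the curve of the members is steeper than that of all genes around 0, with medians of -0.04 and -0.16.

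Among role groups, the 3 eIF2 kinases within the name rule had the lowest median difference between poly IC and naive, at -1.01. Of these, 2 were called lower, where 20.1% of all tested genes were. The other kinase on the array, Eif2ak2, is outside the rule, rose and is given below. Each of the 3 within the rule senses another stress: Eif2ak1 (HRI) lack of haem, Eif2ak3 (PERK) unfolded protein in the endoplasmic reticulum, and Eif2ak4 (GCN2) uncharged tRNA. Eif2ak3 had signals of 439 and 582 in poly IC plus ethanol, 425 and 262 in poly IC, and 2888 in naive. Its group means were 510.6 in poly IC plus ethanol and 343.5 in poly IC, both under the filter of 513. The gene passed that filter through the naive signal, and its fall with poly IC against naive was also called without the filter. All 4 treated pools were far below the naive sample, and the mean of the poly IC pools was below background, so that the naive signal was at least 7.48-fold higher than that of poly IC (log2 difference -2.42, SE 0.39, adjusted p = 0.00134). Against naive, Eif2ak3 fell with poly IC plus ethanol too (-2.05, adjusted p = 0.00611), and against poly IC alone the ethanol group differed by 0.37 (SE 0.32, adjusted p = 0.528).

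Eif2ak1 had signals of 3032 and 3373 in poly IC plus ethanol, 1804 and 1732 in poly IC, and 3807 in naive. The ethanol pools lay between the other groups, without overlap, at 1.81-fold the mean of poly IC. Eif2ak1 rose with ethanol against poly IC (log2 difference 0.77, SE 0.17, adjusted p = 0.0211) and fell with poly IC against naive (log2 difference -1.01, SE 0.21, adjusted p = 0.0051). The call against poly IC was lost when either poly IC pool was left out (adjusted p = 0.115 without replicate 1 and 0.167 without replicate 2), and the fall against naive passed in every alternative. Eif2ak4 had signals of 736 and 708 in poly IC plus ethanol, 660.1 and 581 in poly IC and 1252 in naive, and passed in no comparison (poly IC minus naive -0.79, SE 0.34, adjusted p = 0.11). The fourth kinase, Eif2ak2 (PKR), which is activated by double-stranded RNA and is interferon-induced, is outside the name rule. Its signals were 2694 and 2829 in poly IC plus ethanol, 5621 and 5795 in poly IC, and 642 in naive, a rise of 2.74 with poly IC against naive (adjusted p = 6.73e-06) and a fall with ethanol against poly IC (-0.98, adjusted p = 0.00674).

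The factor eIF2 carries the initiator tRNA, and eIF2B is its exchange factor. Their 6 tested subunit genes were described together with Eif2a and Eif2d, which encode separate initiation factors. Of these 8, none passed with ethanol against poly IC, where 10.6% of all tested genes did. Eif2d alone fell in poly IC against naive, where 20.1% of all tested genes fell. The medians were -0.04 and 0.03. The limma test at an unadjusted p under 0.05 took in 3 of the 8 in the ethanol comparison and 2 in poly IC against naive. For all tested genes these shares were 25.8% and 42.3%. Eif2d, which can deliver initiator tRNA without GTP, had signals of 1527 and 963 in poly IC plus ethanol, 783 and 560.0 in poly IC and 1627 in naive. The poly IC pools were the lowest, and the fall against naive (log2 difference -1.04, SE 0.34, adjusted p = 0.0425) was lost when either poly IC pool was left out (adjusted p = 0.0594 without replicate 1 and 0.165 without replicate 2). Eif2b2, the beta subunit of eIF2B, had signals of 3431 and 3696 in poly IC plus ethanol, 2565 and 2313 in poly IC and 1945 in naive. Its 3 groups did not overlap, and it rose in poly IC plus ethanol against naive, where the difference was 0.80 (SE 0.21, adjusted p = 0.0285). That call was lost when either poly IC pool was left out (adjusted p = 0.064 and 0.0615).

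The gamma subunit of eIF2 has an X-linked and a Y-linked gene. Eif2s3x had signals of 25209.7 and 21869 in poly IC plus ethanol, 22722.5 and 26122 in poly IC and 22381 in naive, and the naive signal lay within the range of the ethanol pools, which overlapped the poly IC pools. Eif2s3y had signals of 63.7 and 154 in poly IC plus ethanol, 28.5 and 14.7 in poly IC and 22.1 in naive, below background on all 5 arrays, as were the Y-linked Kdm5d and Uty, while Xist had 3907 to 8236. The 4 treated arrays thus went with their label as female, and the naive array, whose label gives no sex, had an Xist signal of 7699.

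Factors of start-site selection and subunit joining held the largest rise of the group. Eif1a, which helps the small subunit scan for the start codon, had signals of 12801.5 and 11156 in poly IC plus ethanol, 15566 and 17081 in poly IC and 5305 in naive. The 3 groups did not overlap: the poly IC pools were highest and the naive sample lowest. Eif1a rose 3.08-fold with poly IC against naive (log2 difference 1.58, SE 0.17, adjusted p = 0.000102) and 2.26-fold with poly IC plus ethanol against naive (1.14, adjusted p = 0.00143). Against poly IC the ethanol group differed by -0.44 (SE 0.14, adjusted p = 0.0762). Another Eif1a probe set gave 1.33 for poly IC against naive (adjusted p = 0.00099), -0.11 for ethanol against poly IC (adjusted p = 0.737) and 1.22 for poly IC plus ethanol against naive. Its X-linked near copy Eif1ax differed by 0.27 between poly IC and naive (adjusted p = 0.455). Short probes may not separate these near-identical genes.

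Eif6, which keeps the large ribosomal subunit from joining early, had signals of 10042.5 and 9217 in poly IC plus ethanol, 9701 and 11381 in poly IC and 5915 in naive. Ethanol and poly IC pools overlapped, and all 4 were above the naive sample. It rose against naive with poly IC (log2 difference 0.80, SE 0.18, adjusted p = 0.00746) and with poly IC plus ethanol (0.68, adjusted p = 0.0297). The first of these did not pass without poly IC replicate 2 (adjusted p = 0.0685) and the second did not when either poly IC pool was left out (adjusted p = 0.0582 and 0.0592). Eif5b, the GTPase that joins the subunits at the start codon, had signals of 1908 and 1337 in poly IC plus ethanol, 2992 and 2703.5 in poly IC and 2094 in naive. Both ethanol pools were lower than both poly IC pools and than the naive sample. It fell with ethanol against poly IC (log2 difference -0.74, SE 0.20, adjusted p = 0.0478). It had the highest adjusted p of the 7 calls and passed in 6 of 14 alternatives. Another Eif5b probe set gave -0.22 (adjusted p = 0.793), and the call was lost without ethanol replicate 2 (adjusted p = 0.0999), when either poly IC pool was left out (0.247 and 0.198) and when arrays were centred on their medians.

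The eIF3 complex is a scaffold of many subunits on the small ribosomal subunit. Of 10 tested subunits, 2 fell with ethanol against poly IC, where 4.8% of all tested genes did, and none rose. With poly IC against naive 2 other subunits rose, where 11.7% of all tested genes did, and none fell. Eif3a, the scaffold subunit, had signals of 2964 and 3165 in poly IC plus ethanol, 4752 and 5121 in poly IC and 3965 in naive. Eif3d, a subunit that can bind the mRNA cap, had signals of 10948 and 8536 in poly IC plus ethanol, 15205 and 15316 in poly IC and 10922 in naive. For both genes the ethanol pools were below the poly IC pools without overlap, while the naive Eif3d signal lay within the range of the ethanol pools. Eif3a fell with ethanol against poly IC by 0.65 (SE 0.16, adjusted p = 0.0317) and Eif3d by 0.64 (SE 0.15, adjusted p = 0.026). Without poly IC replicate 1 the adjusted p was 0.146 for Eif3a and 0.135 for Eif3d, and without replicate 2 it was 0.252 and 0.176. Neither passed against naive, with 0.30 (adjusted p = 0.276) for Eif3a and 0.47 (adjusted p = 0.0781) for Eif3d in poly IC minus naive.

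Eif3j1, a loosely held subunit, had signals of 11901 and 17660.0 in poly IC plus ethanol, 15162 and 17469 in poly IC and 7134 in naive. The treated pools overlapped each other and all lay above the naive sample, with a rise for poly IC (log2 difference 1.16, SE 0.23, adjusted p = 0.00354) and for poly IC plus ethanol (1.00, adjusted p = 0.0146). Eif3b, a core subunit chosen after its values were seen, had signals of 8089 and 8837 in poly IC plus ethanol, 11170.2 and 10496 in poly IC and 7582 in naive, a rise with poly IC that only just passed (0.50, SE 0.17, adjusted p = 0.0486) and was lost when either poly IC pool was left out (adjusted p = 0.204 and 0.14). The core subunit Eif3c had 17596 and 18338 in poly IC plus ethanol, 17787 and 17907 in poly IC and 17391 in naive, with differences of 0.01 for ethanol against poly IC and 0.04 for poly IC against naive. The other 5 tested subunits passed in no comparison, with differences between -0.23 and 0.12 for ethanol against poly IC and between -0.35 and 0.10 for poly IC against naive.

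The eIF4 factors bind the mRNA cap and unwind the leader, and binding proteins hold eIF4E back. Of 8 tested, 1 rose and 3 fell with poly IC against naive, where 31.8% of all tested genes were called, and 1 rose and 1 fell with ethanol against poly IC, where 10.6% were. The binding proteins Eif4ebp1 and Eif4ebp2 block eIF4E until mTOR phosphorylates them. Eif4ebp1 had signals of 1010.1 and 995 in poly IC plus ethanol, 495 and 544 in poly IC and 1927 in naive. The groups did not overlap, with the ethanol pools between the others. It fell with poly IC against naive (naive over poly IC 3.71-fold; log2 difference -1.50, SE 0.31, adjusted p = 0.00499), in every alternative in which it was tested. With ethanol against poly IC it differed by 0.70 (SE 0.25, adjusted p = 0.112), although the ethanol mean was 1.93-fold that of poly IC.

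Eif4ebp2 had signals of 7139 and 7392 in poly IC plus ethanol, 4989 and 4471 in poly IC and 9611 in naive. Again the ethanol pools lay between the poly IC pools and the naive sample. It rose with ethanol against poly IC (log2 difference 0.60, SE 0.15, adjusted p = 0.0324) and fell with poly IC against naive (log2 difference -0.99, SE 0.18, adjusted p = 0.00259). Another Eif4ebp2 probe set, at 1609 and 1269.8 in poly IC plus ethanol, 539 and 1953 in poly IC and 1131 in naive, passed in neither (0.35 and -0.07, adjusted p = 0.665 and 0.936), and its poly IC pools differed widely. The first call was lost when either poly IC pool was left out (adjusted p = 0.122 and 0.266), when probe sets were averaged and when arrays were centred, and the second only when probe sets were averaged.

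The helicase Eif4a1 and its close relative Eif4a2 were called in different comparisons. Eif4a1 had signals of 3113 and 2671 in poly IC plus ethanol, 5168 and 4232.5 in poly IC and 4037 in naive, with the ethanol pools below all other arrays, and fell against poly IC (log2 difference -0.65, SE 0.18, adjusted p = 0.0436). The call was lost without ethanol replicate 2 (adjusted p = 0.0531) and when either poly IC pool was left out (0.296 and 0.14). Eif4a2 had signals of 17949 and 15623.5 in poly IC plus ethanol, 19273 and 21188 in poly IC and 33122 in naive. All treated pools were well below the naive sample, with a fall for poly IC (log2 difference -0.71, SE 0.15, adjusted p = 0.00652) and for poly IC plus ethanol (-0.97, adjusted p = 0.00199), while ethanol against poly IC gave -0.27 (adjusted p = 0.215). Whether the changes of the 2 helicases differ was not tested.

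Eif4e2, a cap-binding relative of eIF4E that acts in repression, had signals of 1899 and 1979 in poly IC plus ethanol, 1734 and 1343 in poly IC and 725 in naive. Every treated pool was above the naive sample. It rose with poly IC (log2 difference 0.87, SE 0.26, adjusted p = 0.0288) and with poly IC plus ethanol (1.17, adjusted p = 0.0133). Its other probe set gave 0.78 (adjusted p = 0.177) for poly IC against naive and 0.63 (adjusted p = 0.334) for poly IC plus ethanol against naive. Both calls were lost without the signal filter, that of poly IC plus ethanol also with probe sets averaged (adjusted p = 0.0562), and that of poly IC also when either poly IC pool was left out (adjusted p = 0.162 and 0.0508). For Eif4b, the helicase cofactor, the brightest probe set gave -0.37 between poly IC and naive (adjusted p = 0.151), and another, looked at after its value was seen, gave -1.20 (adjusted p = 0.00339). Eif4e itself did not pass the filter, with 484 and 322 in poly IC plus ethanol, 425 and 289 in poly IC and 398 in naive, above background on 3 of 5 arrays. Eif4h and Eif4enif1 were below the filter too.

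**Figure D3:**
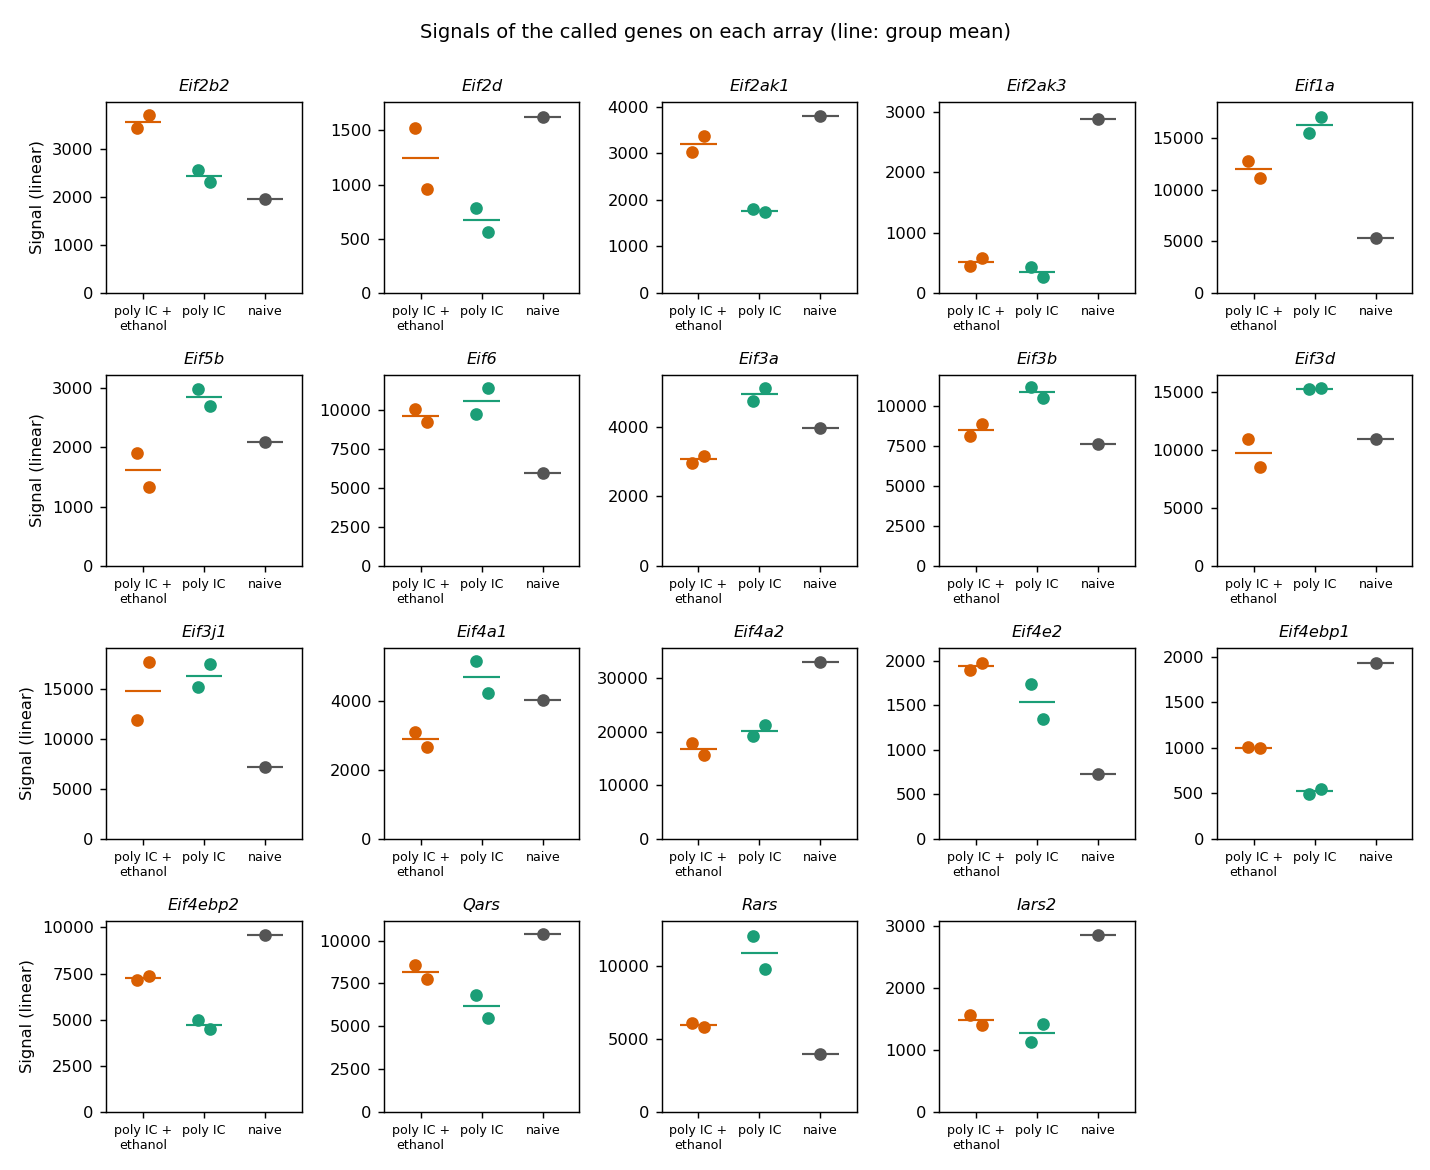
Signals (linear y axis from 0) of the 19 members called in any comparison, 1 point for each array and a line at the group mean, with poly IC plus ethanol on the left, poly IC in the middle and the 1 naive array on the right of each panel. Eif2ak1, Eif4ebp1 and Eif4ebp2 show the ethanol pools between the lower poly IC pools and the higher naive signal, and Rars shows them between the higher poly IC pools and the lower naive signal.

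Of 6 elongation genes tested, limma called none in any comparison. Among all tested genes 10.6% were called with ethanol against poly IC. The share was 31.8% in poly IC against naive and 16.6% in poly IC plus ethanol against naive. Unadjusted p was under 0.05 for 0, 2 and 0 of the 6 in that order, beside 25.8%, 42.3% and 30.4% of all genes. The 2 were Eef2 and Eef1akmt1, a member by its symbol. Eef1a1, which carries loaded tRNA to the ribosome, had signals of 137399 and 135695 in poly IC plus ethanol, 133128 and 143012 in poly IC and 127474 in naive. Eef2, the translocation factor, had 42465 and 43127 in poly IC plus ethanol, 38529.6 and 37048 in poly IC and 46925 in naive. The ethanol pools of Eef1a1 lay within the range of the poly IC pools, and those of Eef2 lay between poly IC and naive by small steps (0.18 for ethanol against poly IC, adjusted p = 0.287, and -0.31 for poly IC against naive, adjusted p = 0.0746). Eef1a1 and Eef2 had standard errors of 0.08 and 0.1 for ethanol against poly IC. Eef2k, the kinase that stops eEF2, was below the filter (160.3 and 322 in poly IC plus ethanol, 585 and 463 in poly IC and 481 in naive), as were Eef1g and Eif5a, a factor that relieves stalled ribosomes. Eif5a had 308 and 687 in poly IC plus ethanol, 646 and 693 in poly IC and 219 in naive.

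Of 17 cytosolic synthetases tested, 1 fell with ethanol against poly IC, where 10.6% of all tested genes were called. With poly IC against naive 1 rose and 1 fell, where 31.8% of all tested genes were called. None passed in poly IC plus ethanol against naive, where 16.6% of all tested genes did. In that comparison limma gave 3 of the 17 at an unadjusted p under 0.05, beside 30.4% of all tested genes. The medians were -0.02, 0.17 and 0.03. Rars, the arginyl synthetase, had signals of 6105.5 and 5848 in poly IC plus ethanol, 12107 and 9791 in poly IC and 3985 in naive. The groups did not overlap: poly IC was highest, and the ethanol pools stood nearer to the naive sample than to poly IC. Rars fell with ethanol against poly IC (poly IC over ethanol 1.83-fold; log2 difference -0.84, SE 0.16, adjusted p = 0.0107) and rose 2.75-fold with poly IC against naive (log2 difference 1.40, SE 0.19, adjusted p = 0.000498), and it differed by 0.56 between poly IC plus ethanol and naive (adjusted p = 0.0817). The rise with poly IC passed in every alternative, and the fall with ethanol did not pass without poly IC replicate 1 (adjusted p = 0.122).

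Qars, the glutaminyl synthetase, had signals of 8601 and 7752 in poly IC plus ethanol, 6828 and 5496.5 in poly IC and 10389 in naive. It stood lowest in poly IC, with ethanol pools in between, and fell with poly IC against naive (log2 difference -0.74, SE 0.19, adjusted p = 0.0163), a call that ended without poly IC replicate 2 (adjusted p = 0.118) and when arrays were centred. Rars and Qars both belong to the multi-synthetase complex, of which 7 genes were tested. With poly IC against naive 1 of the 7 rose and 1 fell, where 31.8% of all tested genes were called. With ethanol against poly IC 1 fell, where 10.6% of all tested genes were called. The other 5 (Eprs, Iars, Kars, Lars and Mars1) were not called, at -0.58 to 0.41 in poly IC minus naive and -0.37 to 0.73 in poly IC plus ethanol minus poly IC. Eprs, the fused glutamyl and prolyl synthetase, had signals of 2207.5 and 2285 in poly IC plus ethanol, 2440.2 and 2076 in poly IC and 1856 in naive.

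Wars, the tryptophanyl synthetase, is known as interferon-inducible in human cells. Here it had signals of 5955 and 4482 in poly IC plus ethanol, 4239.5 and 5421 in poly IC and 4247 in naive, and the poly IC pools overlapped both other groups (poly IC minus naive 0.17, SE 0.23, adjusted p = 0.63). Its other probe sets gave 0.50 (adjusted p = 0.117) and 0.29 (adjusted p = 0.569). Vars, the valyl synthetase, was not called either, with 8289 and 12418 in poly IC plus ethanol, 9723.5 and 8381 in poly IC and 7602 in naive.

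Mitochondrial synthetases had a difference below 0 in 4 of 5 genes for poly IC against naive. Their median was -0.46, beside -0.16 over all tested genes. Of these Iars2 alone was called, and it was lower, as were 20.1% of all tested genes. Iars2, the mitochondrial isoleucyl synthetase, had signals of 1558 and 1395 in poly IC plus ethanol, 1123 and 1421 in poly IC and 2849.8 in naive. All 4 treated pools lay near each other and below the naive sample. It fell with poly IC (log2 difference -1.03, SE 0.25, adjusted p = 0.0113) and with poly IC plus ethanol (-0.85, adjusted p = 0.0464), of which the first call ended without poly IC replicate 1 (adjusted p = 0.0679) and the second when either poly IC pool was left out (adjusted p = 0.0729 and 0.0758). The Iars2 call for poly IC plus ethanol against naive passed in only 5 of 12 alternatives. It was also lost with the lower offset, without the filter, with centring, with quantile normalization and without the intensity trend. Rars2, the mitochondrial arginyl synthetase, had 4967 and 4450.5 in poly IC plus ethanol, 4221 and 4941 in poly IC and 6389.9 in naive (poly IC minus naive -0.46, adjusted p = 0.105).

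Many synthetase genes are known targets of the transcription factor ATF4, which acts through an amino acid response element. Promoter windows of 300 bases, 250 before to 50 after the start, were taken from RefSeq (GRCm38.p6) for the 55 of 70 members that the table held. The motif TGATGNAA was searched on both strands, and a gene counted when any of its windows held it. This was so for 7 of 55 members (12.7%) and for 4.51% of all 27025 genes with a window. Of 10 cytosolic synthetases with a window 5 had it, and their promoter stretches around it are shown, with the match in capitals, because genes of the stress response that Atf4 belongs to were also followed. Each reads 5′ to 3′ on the strand of its gene.
Aars, chr8:111033695-111033772, plus strand: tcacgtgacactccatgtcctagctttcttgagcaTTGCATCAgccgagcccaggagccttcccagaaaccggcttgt
Gars, chr6:55037936-55038013, plus strand: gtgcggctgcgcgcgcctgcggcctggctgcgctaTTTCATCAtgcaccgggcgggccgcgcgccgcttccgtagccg
Iars, chr13:49682102-49682159, plus strand: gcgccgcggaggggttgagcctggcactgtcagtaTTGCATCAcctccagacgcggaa
Tars, chr15:11399631-11399708, minus strand: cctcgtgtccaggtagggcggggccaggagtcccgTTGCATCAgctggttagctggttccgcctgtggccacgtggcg
Yars, chr4:129189871-129189932, plus strand: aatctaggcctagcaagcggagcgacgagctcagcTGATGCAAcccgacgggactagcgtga

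The match begins 112 bases before the start in Aars, 30 in Gars and 15 in Tars, and just after the start in Iars and Yars, and Aars holds another match outside the stretch. A match describes these letters and does not show a site in use. None of these genes was called with poly IC against naive: the differences were 0.63 for Aars (adjusted p = 0.0568), 0.05 for Gars, 0.26 for Iars, 0.71 for Tars (adjusted p = 0.136) and 0.18 for Yars. Aars had signals of 2482 and 2101.5 in poly IC plus ethanol, 2887.5 and 2619 in poly IC and 1695 in naive, with the 3 groups apart and the naive sample lowest. An interferon response motif, GAAA followed by any 2 bases and GAAA again, was searched on both strands. It was in a window of 3 of 55 members (5.45%, namely Eif2s3x, Eif3a and Qars), beside 3.99% of all genes.

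The E-box CACGTG reads the same on both strands and is bound by MYC among others. It was in a window of 13 of 55 members (23.6%), beside 8.09% of all genes. The windows of members were richer in G and C, with a median of 60.7%, beside 52.8% over all genes. Of the 5 genes that fell with ethanol against poly IC, Rars had no window in the table and was not searched. Eif3d and Eif5b had windows without the E-box. In Eif3a it begins 22 bases after the start and in Eif4a1 189 bases before it. Of the other members with the E-box, Aars, Eef2, Eif1b, Eif3f, Eif3k, Iars and Tars were tested. None of these was called with ethanol against poly IC, with differences from -0.37 to 0.37. Whether the E-box goes with a fall was not tested. Eif3a and Eif4a1 are shown with the E-box in capitals. It also occurs in lower case in the stretches of Aars and Tars above, without overlap with the capitals there.
Eif3a, chr19:60790664-60790706, minus strand: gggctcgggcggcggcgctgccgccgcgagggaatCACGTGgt
Eif4a1, chr11:69672572-69672647, minus strand: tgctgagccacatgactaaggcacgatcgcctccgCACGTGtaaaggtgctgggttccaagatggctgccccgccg

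Genes of the integrated stress response, the program set off when eIF2 is phosphorylated, were listed beside the members, with 23 of 25 on the array tested. The list also holds Eif2ak2, which is itself an interferon-induced kinase of eIF2. It is among the 11 rises given next, with the largest (2.74). With poly IC against naive 11 rose and 2 fell, where 11.7% of all tested genes rose and 20.1% fell, and the median was 0.54, beside -0.16 over all tested genes. Atf3 (2.20, adjusted p = 3.29e-06), the amino acid transporter Slc7a5 (1.33), the eIF2 phosphatase subunit Ppp1r15b (1.28), asparagine synthetase Asns (0.79, adjusted p = 0.0257) and Atf4 itself (0.42, adjusted p = 0.0429) rose. Cebpg, a partner of ATF4 in DNA binding, fell (-1.10), as did Herpud1 (-0.75), which acts in disposal of misfolded protein. Ddit3, which encodes CHOP, gave -1.21 and did not pass (adjusted p = 0.103). Atf4 had signals of 22727 and 22386 in poly IC plus ethanol, 25097 and 23951 in poly IC and 18287 in naive, all 4 treated pools above the naive sample.

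With ethanol against poly IC 1 gene of this list rose and 3 fell, where 5.77% of all tested genes rose and 4.8% fell. The median was 0.05, beside 0.07 over all tested genes. Nupr1, a stress-induced chromatin protein, had signals of 48285 and 47599.5 in poly IC plus ethanol, 17548 and 16449 in poly IC and 7153.5 in naive. Its ethanol pools were far above all other arrays (1.48, SE 0.11, adjusted p = 0.000205). The genes that fell were Eif2ak2, given above, Cebpb (-0.75, adjusted p = 0.006), a transcription factor of macrophages, and the chaperone Hspa5 (-0.52, adjusted p = 0.0156). Atf4 differed by -0.12 (adjusted p = 0.563).

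Partners and regulators of translation outside the name rule were listed as well, with 32 of 35 on the array tested. With ethanol against poly IC 2 rose and 4 fell, where 10.6% of all tested genes were called. With poly IC against naive 5 rose and 5 fell, a share near the 31.8% called among all tested genes. Mknk2, a kinase of eIF4E, had signals of 3864 and 4952 in poly IC plus ethanol, 1354 and 1490.2 in poly IC and 8655 in naive. The poly IC pools were lowest and the ethanol pools in between, without overlap (ethanol against poly IC 1.47, adjusted p = 0.00163, and poly IC against naive -2.41, adjusted p = 3.13e-05). Pdcd4, an inhibitor of the eIF4A helicase, had signals of 10617 and 7581 in poly IC plus ethanol, 4457 and 5117 in poly IC and 10609 in naive, with differences of 0.88 (adjusted p = 0.0163) for ethanol against poly IC and -1.11 (adjusted p = 0.00429) for poly IC against naive. Its naive signal lay within the range of the ethanol pools.

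The partners that fell with ethanol against poly IC were Farsa (-0.85), the catalytic subunit of the phenylalanyl synthetase, Aimp2 (-0.76), a scaffold of the multi-synthetase complex, Gspt1 (-0.68), a release factor, and Larp1 (-0.63), which binds mRNAs of ribosomal proteins. In poly IC against naive Larp1 (1.48), Gspt1 (1.06) and Farsa (1.01) rose, with the release factor Etf1 (0.80) and the helicase Ddx3x (0.53). Farsa had signals of 2335 and 1781 in poly IC plus ethanol, 3495 and 4321 in poly IC and 1806 in naive, and the naive signal lay within the range of the ethanol pools. The falls in poly IC against naive were of Mknk2, Pdcd4, the mitochondrial initiation factor Mtif2 (-1.15), Paip2 (-1.02), which holds back the poly(A)-binding protein, and the kinase Akt1 (-0.89). Calls of single partner and stress response genes were not followed in the other settings, as those of members were.

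**Figure D4:**
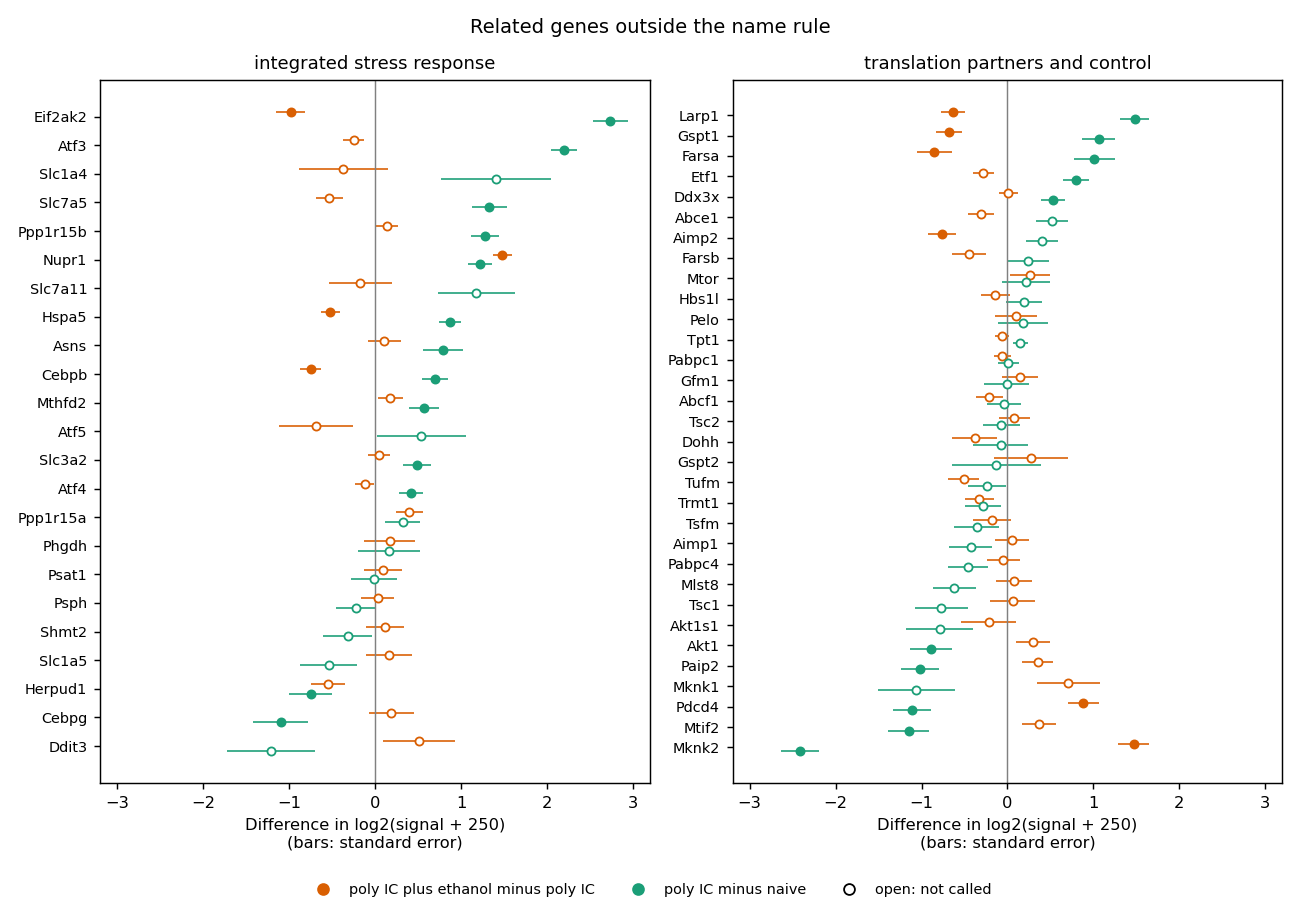
Differences in log2(signal + 250) (x axis) with standard error bars of tested genes of the integrated stress response (left) and of translation partners and regulators (right), for poly IC plus ethanol minus poly IC (upper point of each gene) and poly IC minus naive (lower point), filled where adjusted p was under 0.05. Eif2ak2 at 2.74 and Atf3 at 2.20 lead the rises with poly IC, and Nupr1 at 1.48 and Mknk2 at 1.47 those with ethanol.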

How the data were processed

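RNA of 5 samples was read on 1 array each. Per the labels, the authors made the deposited intensity values with Microarray Suite 5.0, as 1 signal per probe set on a linear scale, scaled to a target of 2500, and used Data Mining Tool 3.0. Samples were grouped by title. Of 12488 probe sets, those with 1 platform symbol (10833) were used, and their symbols were brought up to date by matching Entrez IDs to RefSeq. Probe sets with a mean signal under the 40th percentile (513) were left out. Differences came from a 3-group model on log2(signal + 250) in limma 3.58.1 (R 4.3.3; eBayes with an intensity trend), p-values were adjusted by Benjamini-Hochberg over all 5581 genes, and the fit of each comparison was checked on simulated data. Where the mean of the lower group was below the brightest unspiked control, the fold is a lower bound. In 13 other settings the analysis changed the offset, filter, normalization, probe set rule, variance model, pairing and arrays used, and in 1 more, chosen after seeing the data, it left out the naive array. Members and lists were chosen with earlier results of these data known. Named members were those called with ethanol against poly IC, the 12 largest calls in each other comparison, the brightest of each role and a set list. Python 3.11.15 and matplotlib 3.10.9 made the figures.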

Additional observations from a re-analysis of the deposited data

How the results depend on the processing

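Of 63 members, 7 were called between poly IC plus ethanol and poly IC. That count was 2 without a filter on low signals, 0 without the intensity trend (limma, 13 at an unadjusted p under 0.05) and 0 to 12 with 1 treated array left out: 0 without poly IC replicate 1, 1 without poly IC replicate 2, 12 without ethanol replicate 1 and 7 without ethanol replicate 2. For poly IC plus ethanol against naive, where 8 were called, it was 5 without the filter, 4 without the trend and 5 to 15 with 1 array left out. For poly IC against naive, where 14 were called, it was 9 to 21 with 1 array left out. Over all genes, the count for ethanol against poly IC was 590, and 324 without the filter, 86 without the trend and 139 to 1076 with 1 array left out. Quantile normalization, both other offsets and the higher filter moved no total of called members by over 1.5 times. The higher filter, which left 51 members, took those called lower for poly IC against naive to 5 from 8. It removed Eif2ak3, Eif4ebp1 and Eif2d from the test, and the other 11 calls of that comparison were all kept. No called direction was reversed. With same-numbered pools as a replicate block, 7 members were called for ethanol against poly IC, but the labels do not say that the numbers pair the pools, whose deviations correlated at 0.0501 over genes. With 1 array left out an arm of 1 pool was assumed to vary like the others. Centring the arrays on their medians took the median of all genes to -0.02 for ethanol against poly IC (0.07 otherwise) and left 165 genes called higher and 254 lower, against 322 and 268. Centring ended the calls of Eif4ebp2 and Eif5b with ethanol against poly IC, of Eif2d and Qars with poly IC against naive, and of Eif6 and Iars2 with poly IC plus ethanol against naive. The causes of these changes were not tested. Signals near background, as for Eif4e and Eif2ak3, limit what can be measured.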
